A study of Drosophila melanogaster with 15 samples.

Results

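The glutathione S-transferase genes of Drosophila melanogaster were followed through sorted cells of the adult testis. Members were the genes whose symbol is Gst followed by the class letter D, E, O, S, T or Z and a digit, which gave 35 of the 17408 genes counted. They were 11 Delta, 14 Epsilon, 3 Omega, 1 Sigma, 4 Theta and 2 Zeta genes. The choice used names and no measured value, so transferases listed under other symbols are outside what is called the family here.

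Glutathione S-transferases join the tripeptide glutathione to reactive, electrophilic molecules, which makes these more soluble and less harmful. Delta and Epsilon enzymes belong to insects and other arthropods and are known for the clearing of insecticides and plant toxins, while Sigma, Omega, Theta and Zeta enzymes have relatives across animals. Their substrate is made by glutamate-cysteine ligase and glutathione synthase, and many detoxification genes answer to CncC, the fly relative of the mammalian stress factor Nrf2, which Keap1 holds in check.

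Cells were sorted by the GFP that tj-Gal4 drives. It takes its pattern from traffic jam (tj), a gene of the cyst lineage, that is, the somatic cells that start as cyst stem cells at the testis tip and come to enclose the germ line. The design compared stem cells with less or more of the zinc-finger protein Chinmo, more JAK/STAT signalling or more Hedgehog signalling with controls. Each sample pooled 50 to 100 males, or 100 to 200 testes, and 3 libraries were made in each of 5 groups. All flies carried tj-Gal4 and UAS-GFPnls. WT flies carried a second UAS-GFPnls and no other transgene, and were 10 days old. Upd flies expressed the JAK/STAT ligand Unpaired from UAS-Upd, with UAS-GFP, at 10 days. Ci flies expressed the forms UAS-Ci5Ncm5 and UAS-Ci5m30 of Cubitus interruptus, the Hedgehog pathway's transcription factor, at 10 days. Chinmo flies carried a UAS-chinmo transgene with its UTRs together with tub-gal80TS, which WT flies lacked, at 10 days. The flies labelled chinmo RNAi carried a hairpin against chinmo with UAS-dcr2 and were 2 or 3 days old, so age, dcr2 and hairpin cannot be told apart in them.

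Counts assigned to genes ran from 1143049 to 2943120 per library. Levels are CPM, counts scaled to the library's TMM-adjusted total, given as mean ± SD of 3 libraries. Changes are log2 changes ± SE from edgeR's quasi-likelihood test over all 15 libraries, with p-values adjusted over the 10056 genes that passed a filter on low counts, and a gene is called at an adjusted p under 0.05. Of the transgene targets, upd1 measured 195.5 ± 16.7 CPM in Upd against 6.78 ± 4.64 CPM in WT, and ci 329 ± 164 CPM in Ci against 27.6 ± 7.98 CPM in WT. chinmo measured 418 ± 331 CPM in Chinmo against 71.9 ± 2.87 CPM in WT. In the libraries labelled chinmo RNAi it stood at 117 ± 48.3 CPM, which differed from WT by 0.70 ± 0.51 in log2 (edgeR adjusted p = 0.437), so the targeted transcript was not measured as reduced. Chinmo 3 stood apart with 4983 genes detected, against 8109 to 13229 in the other 14 libraries, and with 32.3% of its counts on ribosomal RNA genes, against 12.8% to 24.2%. Of the markers of the sorted lineage, eya was at 267 ± 66.5 CPM in WT, while tj itself was near 0 in WT 2 and WT 3, with 16.9, 1.59 and 0.475 CPM in the 3 WT libraries. Whether the 3 libraries of a group stem from independent crosses is not in the labels, and p-values therefore cover the spread between these samples alone, which may be technical.

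The Delta genes form 1 run of 11 genes over 20.849 kb (3R:12364776-12385624, dm6 coordinates, BDGP6.54 annotation), with GstD10, GstD9 and GstD1 on the minus strand and the other 8 genes on the plus strand. The run of 10 Epsilon genes covers 13.198 kb (2R:18396638-18409835), with GstE10 alone on the minus strand. GstE11, GstE12, GstE13 and GstE14 lie elsewhere on 2R. The single Sigma gene GstS1 occupies 2R:17093246-17099501 on the minus strand, with 8 merged exons and 2275 bp of exon. The 3 Omega genes lie together (3L:8518885-8524866), as do GstZ1 and GstZ2 (3R:9455517-9460652) and GstT1 and GstT2 (2R:9605988-9608350), while GstT3 and GstT4 lie apart on X. Genes within the Delta and Epsilon runs are alike in sequence, and reads shared between copies could have been counted for either or dropped, so single genes of these runs carry that uncertainty. Exons of GstE13, GstT2, GstE9, GstE12 and GstO2 overlap those of CG18659, CG12926, imd, CG3894 and se, and those of GstE10 and GstE1 overlap each other. The strand setting of the counting is not given in the sources used here.

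GstS1 dominated the family. This Sigma enzyme, known in the fly for acting on aldehydes that arise from damaged lipids, took 5.19%, 3.76% and 4.55% of all gene counts in WT 1, WT 2 and WT 3. It made up 88.3% to 90.01% of the counts of all 35 members there. The whole family held 5.05 ± 0.780% of gene counts in WT and 0.180 ± 0.0378% in Upd. The 3 WT libraries lay between 4.22% and 5.77% and the 3 Upd libraries between 0.155% and 0.224%. In the other groups it held 5.73 ± 1.53% in Chinmo, 4.07 ± 1.42% in Ci and 4.96 ± 0.674% in the libraries labelled chinmo RNAi. Without GstS1 the remaining 34 members held 0.546 ± 0.0770% in WT, 0.0729 ± 0.00591% in Upd, 0.847 ± 0.124% in Chinmo, 0.383 ± 0.123% in Ci and 0.619 ± 0.157% in the libraries labelled chinmo RNAi. These shares are descriptions and were not tested. The bar plot of family counts shows the step between Upd and every other library.

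**Figure D1:**
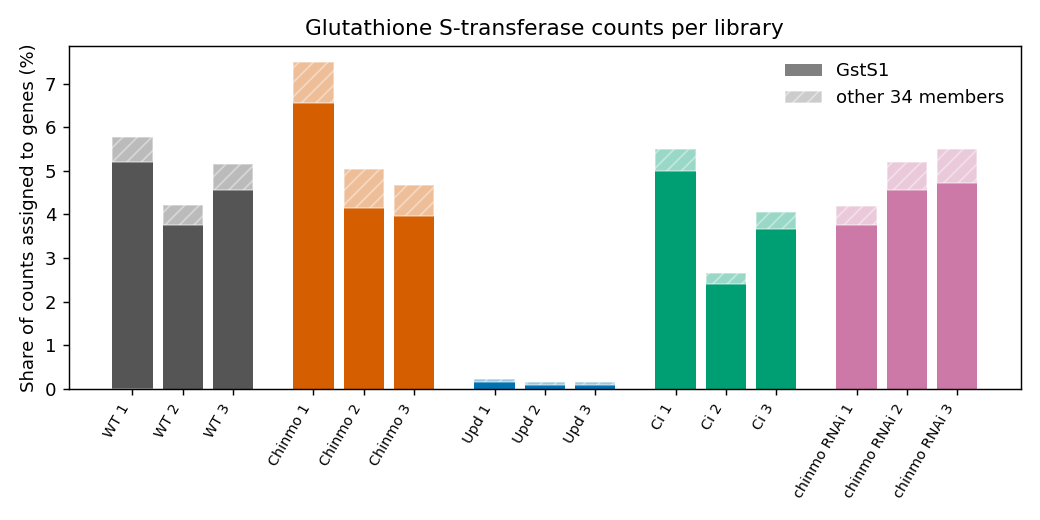
Share of each library's gene counts (percent, vertical axis) that fell on the 35 glutathione S-transferase genes, with GstS1 as the solid part of each bar and the other 34 members as the hatched part. The 12 libraries outside Upd lie between 2.65% and 7.49%, and the 3 Upd libraries lie between 0.155% and 0.224%.

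Levels of different members can be compared only per length, for which counts were divided by exon length and scaled to a common total per library (TPM). In WT the TPM level was 29095 ± 5445 for GstS1 and 4530 ± 486 for GstD1, the Delta enzyme best known for breaking down DDT. GstD3 followed at 1733 ± 224 TPM, GstD9 at 1523 ± 611, GstE3 at 577 ± 116, GstE1 at 335 ± 72.8, GstE12 at 163 ± 42.7, GstE6 at 127 ± 59.8 and GstE2 at 126 ± 49.8 TPM. The tenth, GstT1, stood at 86.9 ± 36.0 TPM. In that order GstD3 and GstD9 lay within 1 SD of each other, as did GstE12 and GstE6, GstE6 and GstE2, and GstE2 and GstT1. GstS1 held rank 4 per length among all genes of known length in each of the 3 WT libraries, ranks 3 to 8 in the Chinmo, Ci and chinmo RNAi libraries, and ranks 105 to 158 in Upd.

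At the other end, 7 members did not pass the filter on low counts and were not tested. GstE10, GstE4, GstZ2, GstD6, GstD7 and GstD11 had from 0 to at most 10, 9, 10, 5, 11 and 4 counts in a library. GstD8 had 0 counts in all 15 libraries. The Delta run therefore held both the strongly read GstD1, GstD3 and GstD9 and, beside them, the barely read GstD6, GstD7, GstD8 and GstD11. All further counts of calls refer to the 28 tested members, which are not all members.

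**Figure D2:**
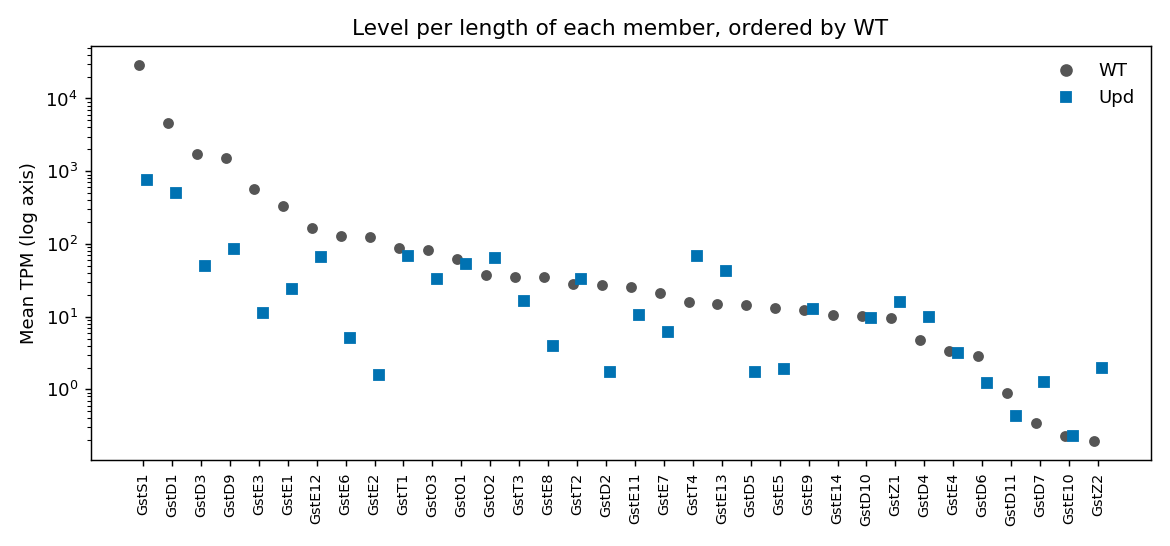
Mean TPM (log axis) of each member in WT (circles) and Upd (squares), ordered by the WT level; a member at 0 in a group has no symbol there. GstS1 stands at 29095 TPM in WT, and the 9 members highest in WT all have lower Upd symbols.

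The comparison of Upd with WT asked how cells exposed to the JAK/STAT ligand differ. Of the 28 tested members 13 were lower in Upd and 0 were higher, where 25.3% of all genes tested were called lower and 9.22% higher. At an unadjusted p under 0.05, 16 members were lower and 0 higher by edgeR, and DESeq2 called 1 member higher and limma-voom 0. The share of all genes at that unadjusted threshold was not counted. Under the other scalings, filters, methods and fits, 830 to 2310 of all genes were called higher and 2281 to 3123 lower. The 13 fallen members were GstS1, 5 of 7 tested Delta genes and 7 of 12 tested Epsilon genes. By edgeR over all 15 libraries 0 of the 3 Omega, 4 Theta and 1 tested Zeta genes were called, though GstO3, GstT3 and GstT4 were in other settings. The median log2 change was -1.93 over the 28 members and -0.07 over all genes tested. In the WT order of level per length, the highest member not called lower was GstT1. The 9 above it were called lower, against 4 of the other 19, but that cut was set by the calls themselves. The WT libraries also entered both the order and the test, so the contrast is a description and not a test.

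GstS1 stood at 51975, 34906 and 42524 CPM in WT 1 to 3 and at 1273, 686 and 631 CPM in Upd 1 to 3. The groups did not overlap, and the highest Upd library was far under the lowest WT library. The log2 change was -5.64 ± 0.40, a fold of 49.97 (edgeR adjusted p = 1.16e-09). In bulk samples such as these, fewer cells of a type and less RNA per cell cannot be told apart.

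Among the Delta genes, GstD1 stood at 2693, 2189 and 2575 CPM in WT and at 221, 187 and 223 CPM in Upd. All 3 Upd libraries lay close together and below every WT library, and the log2 change was -3.56 ± 0.36 (edgeR adjusted p = 1.27e-07). GstD3 stood at 924, 719.7 and 881 CPM in WT and at 24.0, 14.4 and 17.5 CPM in Upd, a change of -5.50 ± 0.49 (edgeR adjusted p = 2.26e-08). GstD9, which lies beside GstD1 on the same strand, stood at 806, 465 and 1058 CPM in WT and at 47.5, 24.6 and 27.8 CPM in Upd. Its change was -4.54 ± 0.50 (edgeR adjusted p = 3.67e-07), again without overlap of the libraries. The other called Delta genes, GstD2 and GstD5, had fewer counts in WT than these. GstD2 had 36, 14 and 32 counts in WT and 4, 1 and 0 counts in Upd, a change of -4.28 ± 1.21 (edgeR adjusted p = 0.00801). Without Upd 3 that call was lost, at -3.68 (edgeR adjusted p = 0.0503), and without Upd 1 the change was -5.85. GstD5 had 9, 42 and 5 counts in WT and 3, 1 and 2 counts in Upd, a change of -3.37 ± 1.24 (edgeR adjusted p = 0.0381). That call rested on WT 2, without which the change was -2.20 (edgeR adjusted p = 0.240), and it was lost without Upd 1, Upd 2 or Upd 3 as well (edgeR adjusted p = 0.0757, 0.144 and 0.126). GstD10 and GstD4, with fitted changes of -0.42 ± 1.10 and 0.65 ± 1.40, did not pass (edgeR adjusted p = 0.801 and 0.753).

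Among the Epsilon genes, GstE3 stood at 354, 235.5 and 263.5 CPM in WT and at 6.79, 2.10 and 3.74 CPM in Upd, a change of -6.07 ± 0.56 (edgeR adjusted p = 3.26e-08). GstE2 had 131, 123 and 215 counts in WT and 2 counts in each Upd library, a change of -6.58 ± 0.71 (edgeR adjusted p = 2.76e-07). The Upd libraries were thus close to the counting limit for GstE2. GstE1 stood at 232, 159.9 and 154 CPM in WT and at 7.59, 15.8 and 6.86 CPM in Upd, with a change of -4.17 ± 0.53 (edgeR adjusted p = 2.53e-06). GstE6 stood at 94.4, 34.2 and 57.9 CPM in WT and at 1.60, 2.81 and 1.25 CPM in Upd, with a change of -5.005 ± 0.69 (edgeR adjusted p = 8.89e-06). In each of these genes all Upd libraries lay under all WT libraries. GstE8 fell from 25.4 ± 11.1 to 2.20 ± 0.262 CPM, with a change of -3.49 ± 1.08 (edgeR adjusted p = 0.0142), and lost the call without Upd 1 or Upd 2 (edgeR adjusted p = 0.0539 and 0.0560).

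GstE12, outside the run, changed least among the called members. It stood at 194, 113 and 140.1 CPM in WT and at 44.3, 44.9 and 47.1 CPM in Upd, a change of -1.71 ± 0.48 (edgeR adjusted p = 0.00804). GstE14, also known as noppera-bo and required in the fly for making ecdysteroid hormones, had 26, 12 and 6 counts in WT and 0 counts in all 3 Upd libraries. Set against 3 counts over the Upd group it was at least 19.1-fold lower (edgeR adjusted p = 0.00389). Within the Epsilon run GstE5, GstE7 and GstE9 did not pass. GstE7 measured 10.5 ± 3.11 CPM in WT against 2.34 ± 0.709 CPM in Upd (edgeR adjusted p = 0.0585). GstE9, the last gene of the run, stood at 11.8, 3.18 and 4.27 CPM in WT and at 5.99, 2.10 and 6.86 CPM in Upd, libraries that overlapped (log2 change -0.35 ± 0.97, edgeR adjusted p = 0.811). Both runs thus held called and uncalled neighbours, 5 of 8 tested genes in the Epsilon run and 5 of 7 in the Delta run being lower.

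The Omega, Theta and Zeta genes gave no call by edgeR over all 15 libraries. GstO2 was at 25.2, 45.4 and 55.6 CPM in WT and at 61.1, 44.5 and 61.7 CPM in Upd, which overlapped (log2 change 0.41 ± 0.68, edgeR adjusted p = 0.677). GstO1, an Omega enzyme of the class that reduces dehydroascorbate and transfers thiol groups, gave -0.63 ± 0.82 (edgeR adjusted p = 0.591), and GstO3 gave -1.71 ± 0.72 (edgeR adjusted p = 0.0710). GstO3 measured 46.9 ± 11.2 CPM in WT against 14.3 ± 3.84 CPM in Upd, without overlap. It was called lower by DESeq2 (DESeq2 adjusted p = 0.00323) and limma-voom (limma-voom adjusted p = 0.0421). The fit of the 2 groups and the fit without Chinmo 3 called it as well (edgeR adjusted p = 0.00244 and 0.00657). GstZ1, of the class that isomerises maleylacetoacetate in tyrosine breakdown, gave 0.36 ± 1.06 (edgeR adjusted p = 0.825). Of the Theta genes, GstT2 gave -0.14 ± 0.92 (edgeR adjusted p = 0.925), and GstT1 measured 56.5 ± 23.9 CPM in WT against 33.2 ± 4.31 CPM in Upd (edgeR adjusted p = 0.391). GstT4 was the only tested member whose Upd libraries all lay above WT, at 9.24, 8.36 and 19.5 CPM in WT and 50.3, 30.9 and 42.7 CPM in Upd. Its change of 1.74 ± 0.93 did not pass (edgeR adjusted p = 0.155). GstT4 did pass by DESeq2 (DESeq2 adjusted p = 0.0284) and in the fit of the 2 groups (edgeR adjusted p = 0.0113). GstT3 was called lower in that fit alone, at -1.60 (edgeR adjusted p = 0.0417). GstZ2, which was not tested, had 0, 1 and 1 counts in WT and 10, 4 and 5 counts in Upd. In simulated data with 100 genes changed 2-fold and 100 changed 8-fold, 0% and 42% were recovered. Those data gave 42 calls, against 927 higher and 2546 lower genes in the real comparison, so an adjusted p was harder to pass there. That recovery therefore does not carry over to the real comparison. An uncalled member is still not shown to be unchanged.

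**Figure D3:**
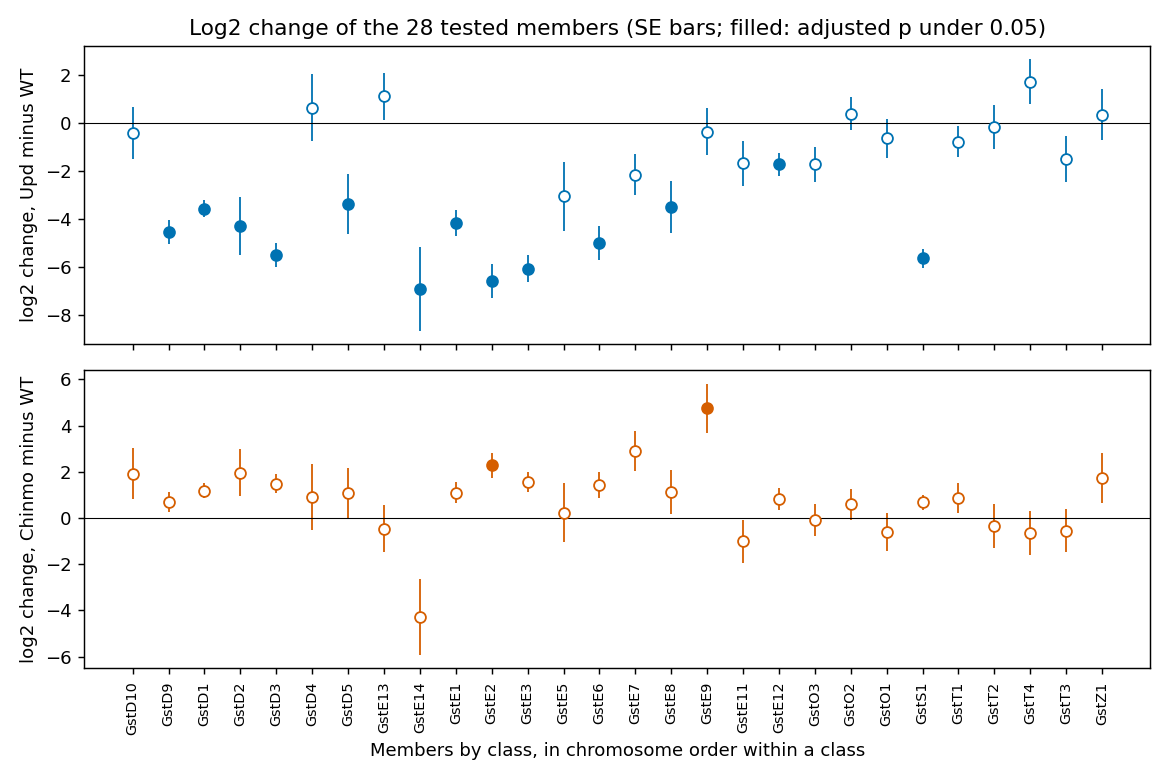
Log2 change against WT (vertical axis, bars are SE) of the 28 tested members in Upd (top) and Chinmo (bottom), by class and in chromosome order; filled circles passed an adjusted p of 0.05. In Upd 13 members are filled, all below 0, and in Chinmo GstE2 and GstE9 are filled, above 0.

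Libraries of Upd and WT did not overlap for 17 members that were lower in Upd, where 35.1% of all genes tested did the same, and for 1 member, GstT4, that was higher, where 32.3% did. For 10 members all 3 Upd libraries lay below all 12 other libraries, against 8.41% of genes tested. These were GstS1, GstD1, GstD3, GstD9, GstE1, GstE2, GstE3, GstE6, GstE7 and GstE12. Of the tested members GstT4 alone lay above all 12, against 15.2% of genes tested. The plot of 12 members by library shows this separation and the more scattered values of GstO2 and GstE9.

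**Figure D4:**
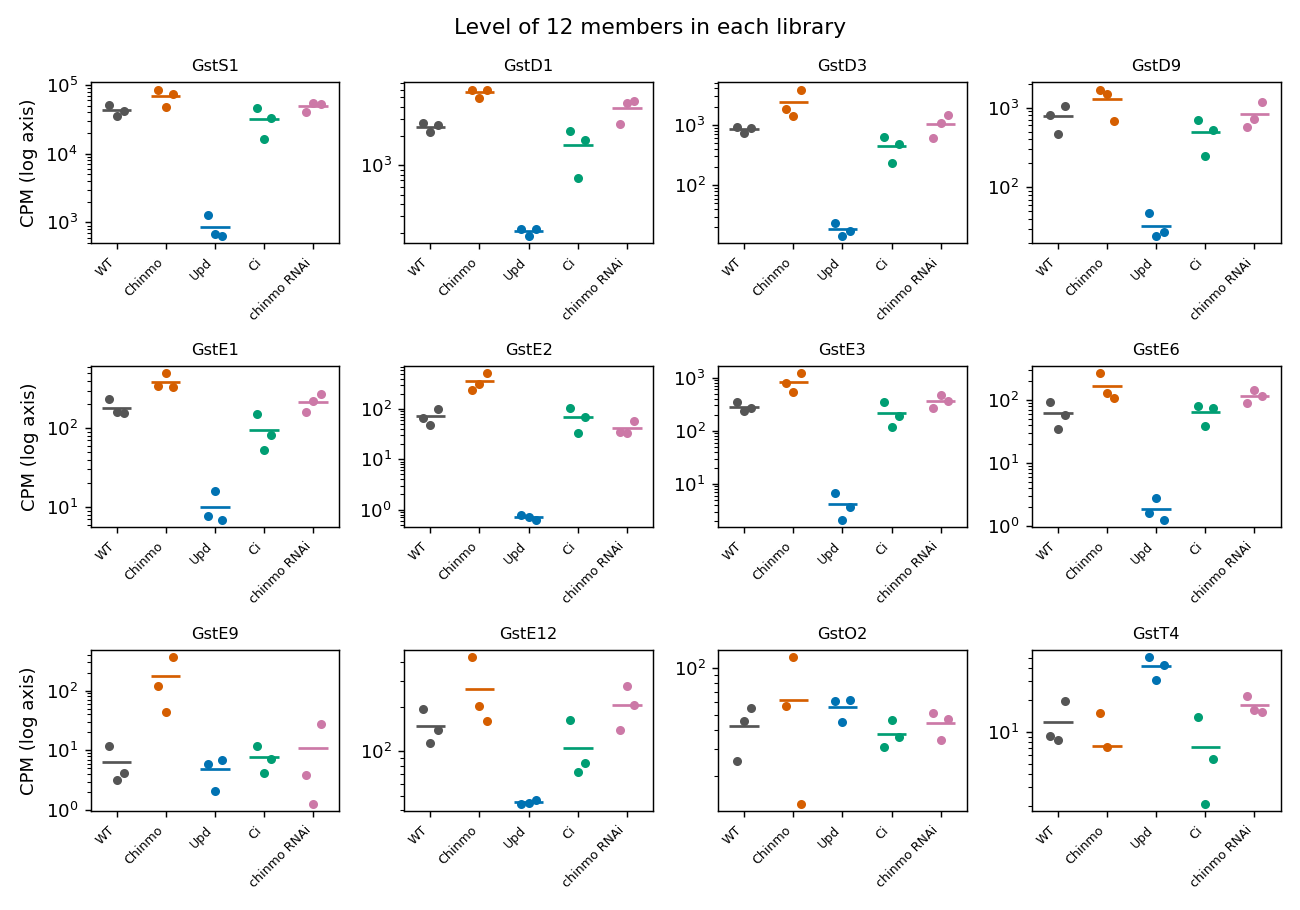
CPM (log axis) of 12 members in each library, 3 points a group, with a line at the group mean; a library at 0 has no point. The Upd points of GstS1, GstD1, GstD3, GstD9, GstE1, GstE2, GstE3, GstE6 and GstE12 lie below all others, those of GstT4 above all others, and the GstE9 points are highest in Chinmo.

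Cell type markers moved with the Upd libraries. The 5 hub markers summed to 189.9 to 239 CPM in WT and 607 to 674 CPM in Upd, with CadN and the transgene's own upd1 called higher and dpp, hh and Fas3 called lower. The summed level of 5 cyst stem cell markers was 101 to 144 CPM in WT and 1850 to 2377 CPM in Upd, all 5 being called higher. The sum of 6 markers of differentiating cyst cells was 2508 to 3317 CPM in WT and 236 to 297 CPM in Upd, with 5 called lower. The sum of 12 early germline markers was 114 to 212 CPM in WT and 2553 to 2928 CPM in Upd, with 11 called higher, and that of 16 spermatocyte and spermatid markers was 4032 to 7158 and 240.1 to 337 CPM, with 9 called lower and ProtA at 0 in Upd. Muscle markers summed to 239 to 292 CPM in WT and 15.6 to 22.4 CPM in Upd, hemocyte markers to 246 to 450.1 and 139 to 159 CPM, with He at 0 in both groups and NimC1 at 0 in Upd, and gut and Malpighian tubule markers to 15.5 to 29.8 and 0.351 to 3.59 CPM, with alphaTry and betaTry at 0 in both groups and Jon99Ci at 0 in WT. Of the tested markers, 3 of 5 for muscle were called lower, Act87E, TpnC73F and Mlc2. For hemocytes crq alone of 3 was called lower, and for gut and Malpighian tubule Irk2 alone of 2. None of these lists had a marker called higher. Over the group, the hemocyte marker Pxn had 6 counts in Upd against 2 in WT, and the muscle marker up 10 against 1. The part of all these markers in the fall of the transferases was not tested.

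Upd was also set against Ci, which asked where the libraries of both signalling pathways differ. Of the 28 members 9 were lower in Upd and 1 was higher, where 23.5% and 5.78% of all genes tested were. The lower members were GstS1, GstD1, GstD3, GstD9, GstE1, GstE2, GstE3, GstE6 and GstE14. GstS1 was at 46358, 16493 and 33230 CPM in Ci, so its highest Upd library of 1273 CPM lay far below each (log2 change -5.21 ± 0.39, edgeR adjusted p = 4.74e-09). GstE2 stood at 103, 32.7 and 69.1 CPM in Ci and at 0.799, 0.701 and 0.624 CPM in Upd (log2 change -6.48 ± 0.71, edgeR adjusted p = 3.99e-07). GstE14 had 10, 14 and 16 counts in Ci and was at least 12.9-fold lower in Upd (edgeR adjusted p = 0.00693). The Theta gene GstT4 was higher, with 13.8, 2.10 and 5.55 CPM in Ci, a change of 2.54 ± 0.96 (edgeR adjusted p = 0.0489). It did not pass without Ci 2, Ci 3, Upd 1, Upd 2 or Upd 3 (edgeR adjusted p = 0.174, 0.174, 0.130, 0.0803 and 0.111), and without Ci 1 the change was 3.44. GstE12 did not pass here (log2 change -1.22 ± 0.48, edgeR adjusted p = 0.0589). The median change was -1.21 over the members and 0.01 over all genes tested. Libraries did not overlap for 14 members lower and 2 higher (33.2% and 31.5% of genes tested). This comparison and that with WT share the Upd libraries.

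Chinmo against WT asked what raised Chinmo goes with. In it 2 members were higher and 0 lower, where 1.75% of all genes tested were called higher and 1.05% lower. At an unadjusted p under 0.05, 9 members were higher and 1 lower, DESeq2 called 5 higher and 1 lower, and limma-voom 5 and 0. The share of all genes at that unadjusted threshold was not counted. Under the other scalings, filters, methods and fits, 1 to 480 of all genes were called higher and 0 to 1210 lower. Both called members, GstE2 and GstE9, are Epsilon genes. GstE2 stood at 67.2, 48.9 and 102 CPM in WT and at 233.5, 318 and 508.5 CPM in Chinmo. The groups did not overlap and the change was 2.28 ± 0.54 (edgeR adjusted p = 0.0365). GstE9 stood at 118, 43.5 and 359 CPM in Chinmo against 11.8, 3.18 and 4.27 CPM in WT, a change of 4.75 ± 1.07 (edgeR adjusted p = 0.0327). imd, the adaptor gene of an immune pathway whose exons overlap those of GstE9, stood at 13.8 ± 7.10 CPM in Chinmo and 27.1 ± 12.4 CPM in WT (edgeR adjusted p = 0.499). Both calls were lost when certain single libraries were left out. The count of all genes called higher also moved then, from 176 to between 0 and 484. Without Chinmo 3 the change was 1.66 for GstE2 (edgeR adjusted p = 0.0736) and 3.40 for GstE9 (edgeR adjusted p = 0.0880). Without WT 1, WT 2 and WT 3 the edgeR adjusted p was 0.108, 0.175 and 0.137 for GstE2 and 0.0809, 0.175 and 0.140 for GstE9, and with the replicate number as a block it was 0.0601 and 0.0515. Some of these losses came with a larger change, 5.40 for GstE9 without WT 1 and 2.60 for GstE2 without WT 3.

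Other Delta and Epsilon genes lay on the same side of WT in Chinmo without passing. GstD1 stood at 5997, 4945 and 5970 CPM, with all 3 libraries above the WT range of 2189 to 2693 CPM (log2 change 1.18 ± 0.33, edgeR adjusted p = 0.0532). GstD3 gave 1.48 ± 0.41 (edgeR adjusted p = 0.0518), GstE3 1.56 ± 0.45 (edgeR adjusted p = 0.0571) and GstE7 2.90 ± 0.86 (edgeR adjusted p = 0.0610). GstD3 had its highest value in Chinmo 3, with 1802, 1418 and 3809 CPM in the 3 libraries. Fitted changes were above 0 for 16 of the 19 tested Delta and Epsilon genes, with a median of 1.12, and for 4 of the 9 others, with a median of -0.09. Those 4 include GstS1, at 0.69, and GstZ1, at 1.72. Chinmo 3 had 0 counts for GstT2, GstT3, GstT4 and GstZ1, and 2, 8 and 9 for GstO1, GstO2 and GstO3. It also had 0 for GstE5, GstE8, GstE13, GstE14, GstD4 and GstD10. Of the 9 others, only GstZ1 and GstO2 exceeded all WT libraries in both Chinmo 1 and Chinmo 2. GstZ1 stood at 30.0 and 25.0 CPM there, against at most 8.21 CPM in WT. GstO2 stood at 56.7 and 117 CPM, against at most 55.6 CPM. The part of Chinmo 3 in the contrast of classes was not tested. Joining Delta with Epsilon was not planned, and the share of all genes tested above 0 was not counted. Over all 28 members the median was 0.89 and over all genes tested -0.32. The Chinmo libraries lay above all WT libraries for 9 members, all of the Delta or Epsilon class, where 7.93% of genes tested did, and below them for 1, GstE14, where 20.7% did. GstS1 was at 85652, 47542 and 75192 CPM in Chinmo, and its change of 0.69 ± 0.33 did not pass (edgeR adjusted p = 0.203). Per length GstS1 stood at 31694 ± 8039 TPM in Chinmo and 29095 ± 5445 TPM in WT. CPM carry the TMM factors, which ran from 0.528 to 1.46 over the libraries, and TPM do not. GstE14 had 1, 0 and 0 counts in Chinmo against 44 in all of WT, a ratio of 0.0450 with a 95% counting interval of 0.00111 to 0.264 (edgeR adjusted p = 0.126).

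In Chinmo the summed spermatocyte and spermatid markers were lower than in WT, at 1761 to 2736 CPM, with 1 of 16, fzo, called lower. Those of differentiating cyst cells summed to 3583 to 5451 CPM, above WT, while their median log2 change was -0.62 and 0 of 6 were called. Hub markers summed to 346 to 761 CPM, above WT, with dpp called higher and a median log2 change of -0.66. Hemocyte markers summed to 534 to 947 CPM, with NimC1 and He at 0, against 246 to 450.1 CPM in WT. Of the 3 hemocyte markers tested 0 were called, and their median log2 change was 0.10. Early germline markers summed to 68.1 to 122 CPM, with bam and zpg at 0, against 114 to 212 CPM in WT, and 0 of 12 were called. The part of all these markers in the levels of the transferases was not tested.

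Ci against WT asked what activated Hedgehog signalling goes with. The edgeR test called 0 of the 28 members in either direction, where 0.00994% of all genes tested were called higher and 0% lower. DESeq2 and limma-voom also called 0 members. At an unadjusted p under 0.05, 2 members were lower, GstD3 and GstD5, and 0 higher. The share of all genes at that unadjusted threshold was not counted. Under the other scalings, filters, methods and fits, 1 to 3 of all genes were called higher and 0 to 1 lower. Fitted changes were below 0 for 24 of 28 members, with a median of -0.51 against 0.01 over all genes tested. The Ci libraries lay below all WT libraries for 5 members, where 5.8% of genes tested did, and above them for 0, where 6.35% did. GstD3 stood at 621, 237 and 488 CPM in Ci, under the 3 WT libraries (log2 change -0.91 ± 0.41, edgeR adjusted p = 1). GstD5 had 0, 3 and 2 counts in Ci against 9, 42 and 5 in WT. GstS1 overlapped between the groups, with a change of -0.43 ± 0.33 (edgeR adjusted p = 1).

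The libraries labelled chinmo RNAi gave 0 called members against WT by edgeR, where 1.38% of all genes tested were called higher and 5.38% lower. DESeq2 called 1 member lower, GstD2, and limma-voom called 0. At an unadjusted p under 0.05 GstD2 alone was lower and 0 were higher. The share of all genes at that unadjusted threshold was not counted. Under the other scalings, filters, methods and fits, 67 to 520 of all genes were called higher and 285 to 1443 lower. The libraries of the label lay above all WT libraries for 2 members, GstT2 and GstT3, and below them for 1, GstD2, where 15.3% and 20.8% of genes tested did. GstD2 had 7, 0 and 6 counts there and 36, 14 and 32 in WT (log2 change -2.33 ± 1.09, edgeR adjusted p = 0.199). GstZ1 had 8, 68 and 63 counts against 16, 9 and 11 in WT (log2 change 2.25 ± 1.09, edgeR adjusted p = 0.219). The first library of the label, at 5.13 CPM, lay inside the WT range of 3.58 to 8.21 CPM, and the other two lay above it. GstS1 stood at 40100, 55195 and 53587 CPM (log2 change 0.20 ± 0.33, edgeR adjusted p = 0.761). The members' median change of 0.25 changed sign between alternatives, from -0.07 to 0.34. Spermatocyte and spermatid markers summed to 2357 to 3283 CPM in these libraries, below WT, with 4 of 16 called lower and aly and nht at 0. Differentiating cyst cell markers summed to 1387 to 2154 CPM, below WT, with 0 of 6 called, and early germline markers to 50.8 to 208 CPM, with 2 of 12 called lower. Hub markers summed to 702 to 744 CPM and hemocyte markers to 740.2 to 833 CPM, above WT, with 0 called in either list. Their part in these levels was not tested.

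The order of the 5 group means was the same for 9 tested members, GstS1, GstD1, GstD3, GstD9, GstD10, GstE1, GstE3, GstE8 and GstE12. It ran from Chinmo over the libraries labelled chinmo RNAi, WT and Ci down to Upd. The share of all genes tested with that order was not counted, so it is not shown to be particular to the family. The TMM factors, by which CPM are divided, had group means in the opposite order. They were 0.528 to 0.874 in the Chinmo libraries and 1.20 to 1.32 in the Upd libraries. By mean TPM, which carries no TMM factor, these members kept the order except GstD9. Its mean was 1523 TPM in WT and 1450 TPM in the libraries labelled chinmo RNAi. The step from Ci to Upd was called in GstS1, GstD1, GstD3, GstD9, GstE1 and GstE3 (edgeR adjusted p = 4.74e-09, 1.52e-06, 1.73e-07, 2.48e-06, 4.17e-05 and 8.67e-08). It was not called in GstE12, GstE8 and GstD10 (edgeR adjusted p = 0.0589, 0.0952 and 0.958). The other neighbours in that order did not pass the test, although the libraries of Chinmo and those labelled chinmo RNAi did not overlap for GstD1, GstE1 and GstE3 (edgeR adjusted p = 0.357, 0.292 and 0.119), nor did those of WT and Ci for GstD3 and GstE1 (edgeR adjusted p = 1 for both). For GstE2 both ends stood apart, Chinmo above WT and Upd below the libraries labelled chinmo RNAi (edgeR adjusted p = 0.0365 and 1.24e-06), while the steps between WT, Ci and chinmo RNAi did not pass. For GstE9 Chinmo alone stood above its neighbour, the libraries labelled chinmo RNAi (edgeR adjusted p = 0.0376, or 0.107 without Chinmo 3). For GstO2 and GstT4 no step between neighbours passed.

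Between the groups without WT, Upd had 14 members lower than Chinmo and 0 higher (24.2% and 14.4% of all genes tested), and 12 lower than the libraries labelled chinmo RNAi and 0 higher (20.5% and 9.7%). Without overlap of libraries, 14 members were lower in Upd than in Chinmo and 2 higher (15.6% and 29.2% of genes tested), and 16 lower than in the libraries labelled chinmo RNAi and 1 higher (26.5% and 29%). In Ci 10 members were lower than in Chinmo and 0 higher (4.96% and 3.11% of all genes tested). Libraries did not overlap for 12 members lower and 1 higher in Ci (8.68% and 23.4% of genes tested). The 10 called were GstS1, GstD1, GstD2, GstD3, GstD5, GstE1, GstE2, GstE3, GstE7 and GstE9. GstD3 stood at 449 ± 195 CPM in Ci and 2343 ± 1284 CPM in Chinmo (log2 change -2.38 ± 0.42, edgeR adjusted p = 0.00455), and GstD1 at 1604 ± 782 and 5638 ± 599.9 CPM (log2 change -1.81 ± 0.34, edgeR adjusted p = 0.00501). Without Chinmo 3 the change of GstD3 was -1.52, still past the threshold. The count fell to 2 without Ci 2 and to 2 without Ci 3. Chinmo was higher than the libraries labelled chinmo RNAi for 4 members and lower for 0 (2.23% and 1.55% of all genes tested). Libraries did not overlap for 8 members higher and 2 lower in Chinmo (5.21% and 10.6% of genes tested). The 4 called were GstE2, GstE7, GstE9 and GstD2, and the count was 2 without Chinmo 3 and 0, 1 and 2 without the 3 libraries labelled chinmo RNAi in turn. In Ci 1 member, GstD1, was lower than in the libraries labelled chinmo RNAi and 0 were higher (3.37% and 7.18%), and libraries did not overlap for 9 lower and 1 higher (15.2% and 22.6%). That call was lost without Ci 2, Ci 3 and the libraries 2 and 3 of the label, each leaving 0 members. Of the 0 counts, limma-voom and DESeq2 each called 1 member higher in Upd than in Chinmo and 0 in the remaining pairs. At an unadjusted p under 0.05, 1 member was higher in Upd than in Chinmo, 1 higher in Ci than in Chinmo and 0 in the remaining pairs. The share of all genes at that unadjusted threshold was not counted. Under the other scalings, filters, methods and fits, 830 to 2405 of all genes were called higher in Upd than in Chinmo. All these pairs reuse the libraries of the comparisons above.

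Genes that supply or share the work of the transferases were read from lists, to be set against the 25.3% of all genes tested that were lower in Upd and the 9.22% that were higher. The 7 tested genes listed for glutathione synthesis and turnover included Mgstl, a microsomal transferase-like gene. Of the 7, 1 was lower in Upd than in WT and 0 were higher, a share below that of all genes, with a median of -0.28 against -0.07 over all genes. It was Gclm, the modifier subunit of glutamate-cysteine ligase, at 210.4, 196 and 197 CPM in WT and 35.5, 35.1 and 32.4 CPM in Upd (log2 change -2.55 ± 0.52, edgeR adjusted p = 0.000552). Gclc, the catalytic subunit, measured 56.5 ± 9.39 CPM in WT against 27.3 ± 17.2 CPM in Upd and did not pass (edgeR adjusted p = 0.263). The glutathione synthase gene GSS had 0 counts in all of WT and 1 in all of Upd, failed the filter on low counts and was not tested.

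Of 16 tested thiol peroxidases, thioredoxins and glutaredoxins, 6 were lower in Upd and 0 higher, beside 25.3% and 9.22% of all genes tested, with a median of -0.61. The smallest adjusted p were those of Prx2540-2, CG12896 and Prx2540-1, closely similar peroxiredoxin genes whose reads may be split between them. Prx2540-2 measured 484.5, 611 and 523 CPM in WT against 12.4, 3.51 and 4.68 CPM in Upd (log2 change -6.30 ± 0.56, edgeR adjusted p = 2.26e-08), or -7.01 without Upd 1. Of 6 superoxide dismutases and catalases, 2 were lower and 0 higher, with a median of -0.69, again beside 25.3% of all genes. Sod3, the secreted superoxide dismutase, measured 259, 237 and 209 CPM in WT against 1.20, 3.86 and 0.624 CPM in Upd (log2 change -6.92 ± 0.75, edgeR adjusted p = 2.91e-07), or -7.95 without Upd 2. Irc, an immune-regulated catalase, gave -1.64 ± 0.56 (edgeR adjusted p = 0.0270), a call lost without any of Upd 1, Upd 2, Upd 3, WT 1 or WT 3 (edgeR adjusted p from 0.0545 to 0.101). Cat, the main catalase, did not pass (log2 change -0.92 ± 0.46, edgeR adjusted p = 0.127).

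Of 7 genes listed for NADPH supply, 2 were lower in Upd and 0 higher, close to the 25.3% of all genes, with a median of -1.29. Idh, which makes NADPH from isocitrate, measured 288 ± 65.5 CPM in WT against 79.2 ± 3.45 CPM in Upd (edgeR adjusted p = 0.00131). Nmdmc, an NAD-dependent enzyme of mitochondrial folate metabolism, gave -1.29 ± 0.48 (edgeR adjusted p = 0.0395), and lost the call without Upd 1, Upd 2, Upd 3 or WT 1 (edgeR adjusted p from 0.0740 to 0.239). Of 5 regulators, 1 was higher and 0 lower. It was cnc, the gene of CncC, at 101, 113 and 114.9 CPM in WT and 243, 204 and 252 CPM in Upd (log2 change 1.09 ± 0.41, edgeR adjusted p = 0.0433). Leaving out any 1 of these 6 libraries ended that call (edgeR adjusted p from 0.0838 to 0.138). Keap1 measured 10.3 ± 8.55 CPM in WT against 22.0 ± 6.91 CPM in Upd (edgeR adjusted p = 0.489). Of 12 other detoxification enzymes tested, 5 were lower and 0 higher, with a median of -2.49. Aldh, an aldehyde dehydrogenase, measured 748, 401 and 433 CPM in WT against 48.7, 44.2 and 51.8 CPM in Upd (log2 change -3.45 ± 0.43, edgeR adjusted p = 2.13e-06). The epoxide hydrolases Jheh3 and Jheh2 gave -5.67 ± 0.80 and -2.09 ± 0.41 (edgeR adjusted p = 1.15e-05 and 0.000449), Jheh3 at -6.65 without Upd 3.

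Against WT, 3 genes of these lists were higher in Chinmo and 0 lower, 2 of the 16 thiol genes and 1 of the 6 superoxide dismutases and catalases, where 1.75% of all genes tested were higher and 1.05% lower. The peroxiredoxin Jafrac1 stood at 454, 614 and 570.0 CPM against 214.5, 129 and 211 CPM in WT (log2 change 1.56 ± 0.38, edgeR adjusted p = 0.0365). PHGPx, a glutathione peroxidase homologue, gave 1.71 ± 0.44 (edgeR adjusted p = 0.0452), and Irc gave 2.34 ± 0.57 (edgeR adjusted p = 0.0371) with 158, 253 and 1090.07 CPM. Each call was lost without WT 1, WT 2 or WT 3 and without 1 Chinmo library, Chinmo 2 for PHGPx and Chinmo 3 for Jafrac1 and Irc (edgeR adjusted p from 0.0567 to 0.243), and Irc then fell to a change of 0.80 without Chinmo 3. In the libraries labelled chinmo RNAi, 3 listed genes were higher than in WT, Jafrac1 at 1.39 ± 0.38, Aldh-III at 1.64 ± 0.43 and CG4829 at 2.69 ± 0.76 (edgeR adjusted p = 0.0299, 0.0273 and 0.0382), where 1.38% of all genes tested were higher. Leaving out any 1 of the 6 libraries ended each of these calls (edgeR adjusted p from 0.0561 to 0.163). In Ci 0 listed genes were called.

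**Figure D5:**
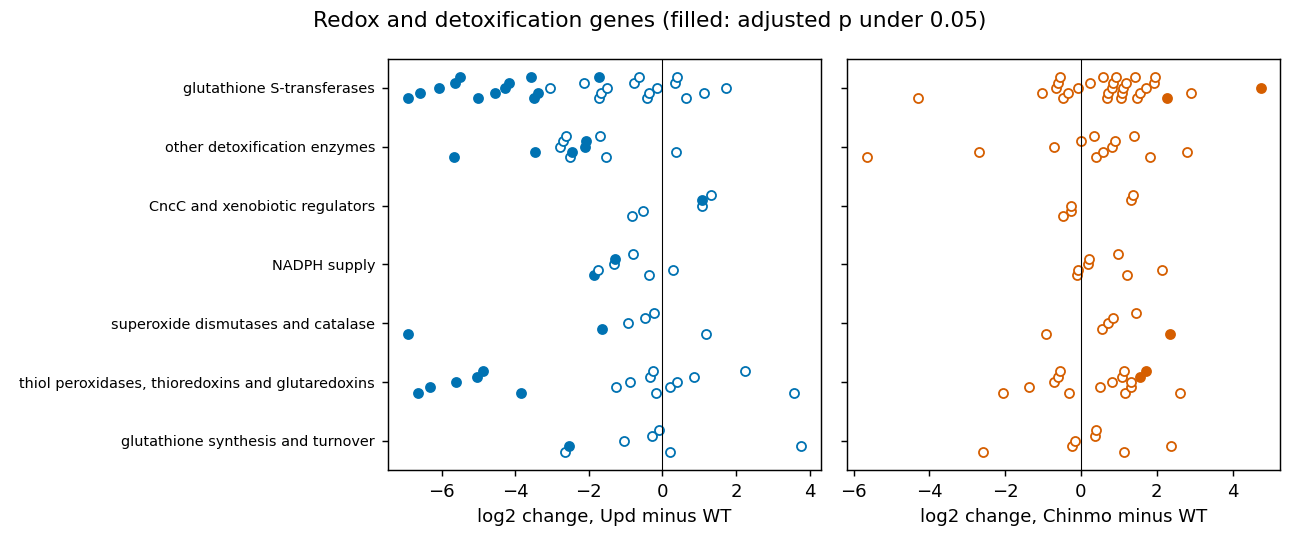
Log2 change against WT (horizontal axis) of the tested transferases and of the tested genes of 6 redox and detoxification lists, for Upd (left) and Chinmo (right); each circle is a gene and filled circles passed an adjusted p of 0.05. In Upd the filled circles lie below 0 in every list except the regulators, where cnc lies at 1.09.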

How the data were processed

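Poly(A) RNA of sorted GFP-positive somatic cells was sequenced in 15 libraries. The authors deposited raw counts per gene and a second table of normalised signal, which was the counts divided by 1 factor per library (largest gap 0.00207) and was not tested. Reads were handled with bcl2fastq, Picard, STAR, HTSeq and DESeq2 on dm6 or BDGP6, per the submitters' processing notes, which state neither versions nor strand setting. The 5 summary lines of HTSeq stayed out of library sizes and tests; ambiguous reads were 13.5% to 26.8% and reads without a feature 7.01% to 17.0% of the total.

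Counts were tested with edgeR 4.0.16 in R 4.3.3 (filterByExpr, TMM, quasi-likelihood with robust spread, 1 mean per group over all 15 libraries), adjusted by Benjamini-Hochberg. The biological coefficient of variation was 65.3%. Exon lengths and positions came from the BDGP6.54 annotation, matched by symbol or synonym. Libraries of a group differed by more than sampling noise (lowest chi-square per degree of freedom 5.59), so none was merged. Same-numbered libraries of different groups had correlations of -0.0807 to 0.298, and libraries with other numbers -0.222 to 0.162. The highest value was between Ci and WT, so pairing of these was not settled. The numbers were not used as pairs in the main test. A group at 0 counts was set to 3 counts over the group, and the exact 95% interval of a count ratio covers counting error only. In simulated data of Upd against WT, 42% of 100 genes changed 8-fold and 0% of those changed 2-fold were recovered. Far fewer genes were changed there than were called in the real comparison, so the real recovery may differ.

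Alternatives were other scalings (RLE, upper quartile, library totals), other filters, DESeq2 1.42.0, limma-voom (limma 3.58.1), a replicate block, fits of 2 groups, leaving out ribosomal RNA genes and leaving out each library. Fits without Chinmo 3 and the 5 pairs of groups beyond the first 5 were added after seeing the data. Named genes were members called against WT or between Upd and Ci, the highest member of each class by mean CPM and the lowest tested one in Delta, Epsilon and Theta, members removed by the filter, up to 3 called genes of a pathway list with the smallest adjusted p, and marker or target genes. Other genes with values (the remaining uncalled members, Gclc, Cat, Keap1 and imd) were chosen after their values were seen. The members and lists were chosen with earlier results of these data known. Sequences were not used here.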

Additional observations from a re-analysis of the deposited data

How the results depend on the processing

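The 13 members lower in Upd than in WT were 11 to 13 when 1 library was left out and 12 to 15 under the other settings, and 10 of the 13 kept their call throughout. Of all genes, the 2546 called lower there were 2001 to 2424 without 1 library and 2281 to 3123 under the other settings. The 2 members higher in Chinmo than in WT became 6 with upper-quartile scaling and 6 with no filter, 5 by DESeq2 and 5 by limma-voom, 0 in the fit of 2 groups and 0 with library totals, and 0 to 6 when 1 library was left out. Of all genes, the 176 called higher in Chinmo became 0 to 484 without 1 library and 1 to 480 under the other settings. The replicate number as a block, which is not known to pair these libraries, gave 0 members higher in Chinmo than in WT. It gave 2 in place of 4 members for Chinmo above the libraries labelled chinmo RNAi. DESeq2 called 1 member lower in Chinmo, 1 higher in Upd and 1 lower in the libraries labelled chinmo RNAi, each against WT and each 0 by edgeR, and 14 in place of 9 lower in Upd than in Ci. The fit of 2 groups gave 1 member higher in Upd than in WT, and 2 in place of 1 higher in Upd than in Ci, a count that was 0 with no filter and 0 to 1 without 1 library. Upd above Chinmo went from 0 to 1 with RLE, upper-quartile scaling, DESeq2, limma-voom and library totals, and was 0 to 1 without 1 library. The 1 member lower in Ci than in the libraries labelled chinmo RNAi became 3 with no filter, 2 by DESeq2, 3 by limma-voom, 2 in the fit of 2 groups, 3 without Chinmo 3 and 0 to 3 without 1 library. Chinmo above the libraries labelled chinmo RNAi gave 0 in the fit of 2 groups, 1 with library totals and 0 to 5 without 1 library. The 10 members lower in Ci than in Chinmo became 0 in the fit of 2 groups, 3 with library totals and 2 to 10 without 1 library. Counts of all genes called moved too under the settings other than leaving out a library. They ran from 3 to 808 for Ci below Chinmo, 499 in the main test. For Chinmo above the libraries labelled chinmo RNAi they ran from 1 to 622 (main 224), and for Ci below those libraries from 147 to 725 (main 339). For Upd they ran from 830 to 2405 above Chinmo (main 1450) and from 2246 to 3085 below Ci (main 2368). The causes were not tested. Among single genes called by edgeR over all 15 libraries or in an alternative, 0 changed sign. The 418 results followed also held counts, medians and genes called in neither, for which a change of sign was not scored. With 3 libraries a group, changes in genes of low count may have been missed. Changes of 2-fold were mostly missed in the simulated data, which held fewer changed genes than the comparison of Upd with WT.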
